A study of Mus musculus with 69 samples.

Results

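The transcription factor genes Tcf7, Lef1, Id3, Bach2, Foxo1, Klf2, Myb, Satb1 and Bcl11b, which are associated with naive and stem-like T cells, were followed through every library of a mouse study of the STAT5 paralogs STAT5A and STAT5B. The 9 genes were chosen by name, and all 9 were found among the 24309 gene symbols of the CD8+ and CD4+ count tables and among the 24311 of the retrovirus table. All 9 passed the filter on low counts in each of the 35 fits. The libraries were polyA RNA-seq of T cells sorted from pooled lymph nodes and spleen.

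T cell factor 1 (the product of Tcf7) and LEF1 are related HMG-box proteins that maintain the naive state and the self-renewing part of the memory pool. ID3 is an inhibitor that binds E proteins and keeps them from DNA, BACH2 is a repressor that competes with AP-1 factors at effector genes, and FOXO1 switches on Klf2, Tcf7 and the homing and IL-7 receptor genes until phosphorylation by AKT removes it from the nucleus. KLF2 drives the receptors for lymph node egress and homing, MYB is linked to survival and self-renewal of memory CD8+ T cells, and SATB1 and BCL11B shape chromatin and T cell identity. IL-7 and IL-15 signal through STAT5, and activation towards effector function lowers much of this set.

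3 genotypes were compared. WT mice carried all 4 Stat5 alleles (Stat5a+/+ Stat5b+/+), AAB mice lacked both Stat5a alleles and 1 Stat5b allele (Stat5a-/- Stat5b+/-), and BBA mice lacked 1 Stat5a allele and both Stat5b alleles (Stat5a+/- Stat5b-/-). The names list the deleted alleles, the deletions were in the germline and therefore also in non-T cells, and the mice were 8 to 16 weeks old. Naive CD8+ cells (Tnv) were sorted as CD44 low, and memory cells (Tcm) and effector cells (Tem) as CD44 high, these being told apart by a further surface marker. They were measured without cytokine (NC) or after culture with IL-15, and Tnv and Tcm also with IL-7, each at 10 ng/ml for 12 to 16 h by the labels. This gave 48 CD8+ libraries, 2 for each genotype in 8 conditions. Naive CD4+ cells were measured without cytokine and with IL-7 (15 libraries in 6 groups of 2 or 3), and 2 more CD4+ libraries had labels that contradict each other and entered no comparison. 4 libraries came from a retrovirus experiment described with its results. The labels tie no library to a mouse, whereas the methods describe biological replicates and count them in mice, and the replicates differed in sex in 4 groups.

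Counts assigned to genes ranged from 5926139 to 25612758 per CD8+ library, from 6705004 to 34118295 per CD4+ library and from 11020965 to 16516525 per retrovirus library. The targeted genes followed the labels: in CD8+ libraries Stat5a was at 31.8 to 104 CPM (counts per 1000000 counts on genes, after normalization) in WT, 0.954 to 4.95 CPM in AAB and 35.6 to 48.3 CPM in BBA, and Stat5b was at 162 to 351 CPM in WT, 77.7 to 143 CPM in AAB and 48.7 to 95.9 CPM in BBA. The CD8 genes Cd8a and Cd8b1 summed to 1210 to 3190 CPM in the 48 CD8+ libraries and to 9.91 to 27.1 CPM in the CD4+ libraries. Tnv libraries with IL-7 were all male by Xist and Y-linked genes while Tnv libraries without cytokine and with IL-15 were all female, so sex and IL-7 cannot be told apart in Tnv; sex was also mixed or different among the Tcm libraries with IL-7, whereas all CD4+ libraries were male. WT Tnv with IL-15 replicate 2 stood apart, with CD4-lineage markers summing to 327 CPM against 11.3 CPM in replicate 1 and regulatory T cell markers to 244 against 26.5 CPM. WT Tcm with IL-7 replicate 1 also stood apart: the IL-7 and STAT5 response genes Bcl2 and Pim1, looked up after the values were seen, were at 564 and 112 CPM there and at 1190 and 502 CPM in replicate 2. Myeloid markers summed to 209 to 357 CPM in the WT Tcm libraries with IL-7, highest in replicate 1, against 46.8 to 57.5 CPM without cytokine. In these bulk libraries fewer cells of a type and less RNA per cell cannot be told apart. Antisense or other genes share exonic sequence with Lef1, Bach2, Foxo1, Myb and Satb1, and since the strand setting of the counting is not given, the counts of these 5 genes may include reads from the overlapping genes.

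Levels of the 9 genes spanned a wide range in WT Tnv without cytokine. Per kilobase of exon, Tcf7 had the highest level with 531 ± 16.5 CPM per kb (SD, n = 2), followed by Klf2 with 412 ± 94.9. Bcl11b (62.6 ± 2.24), Lef1 (60.5 ± 0.539), Foxo1 (47.4 ± 0.0807) and Satb1 (45.5 ± 2.17 CPM per kb) lay close together. Bach2 at 16.3 ± 0.83, Id3 at 9.2 ± 0.273 and Myb at 1.35 ± 0.0501 CPM per kb were lowest, and Myb had the widest range of the 9 over the 8 WT CD8+ conditions, 9.1-fold from the lowest mean (8.11 CPM in Tnv with IL-15) to the highest (73.8 CPM in Tcm without cytokine). Ranked by mean CPM over the 8 WT CD8+ conditions, Tcf7 was highest in Tnv with IL-15 (1420 CPM) and lowest in Tcm with IL-15 (904 CPM). Lef1 ran from 636 CPM in Tnv with IL-15 to 209 CPM in Tem without cytokine, and Bach2 from 398 CPM in Tnv with IL-7 to 75.5 CPM in Tem without cytokine. Neighbouring conditions in this order often overlapped between replicates: 5 of the 7 neighbouring pairs did for Tcf7, 3 for Lef1, 4 for Id3, Bach2 and Satb1, 6 for Foxo1 and Klf2, 2 for Myb and all 7 for Bcl11b.

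**Figure D1:**
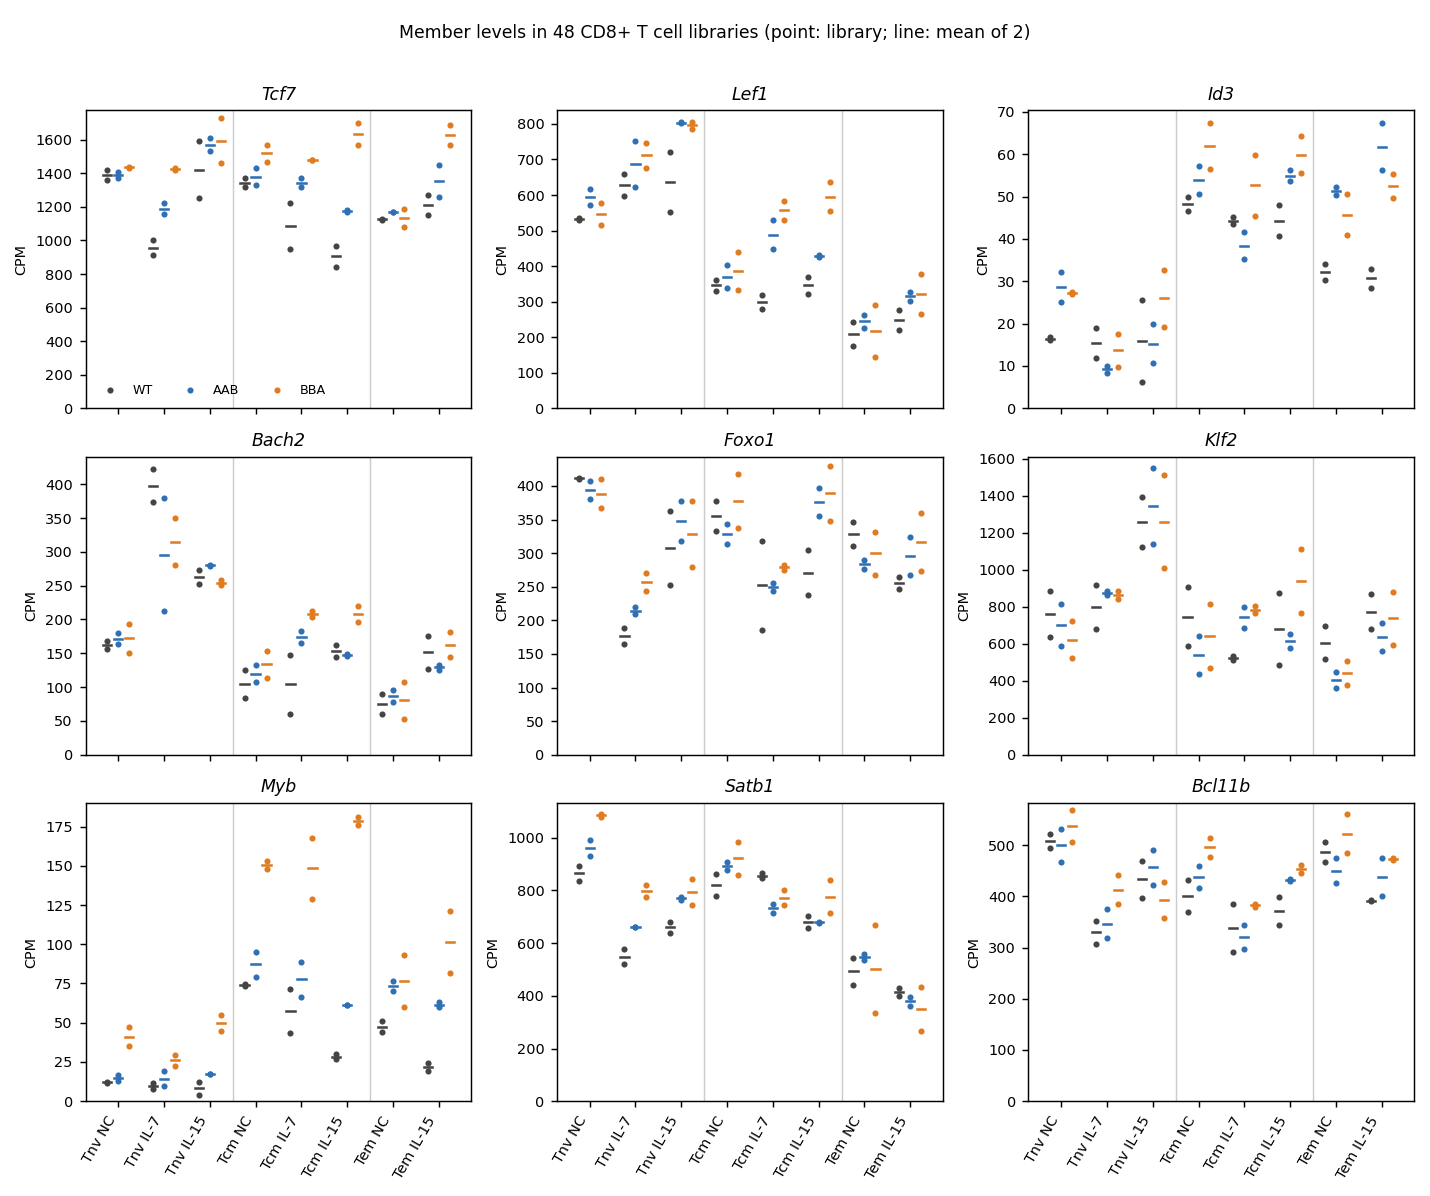
Level of each gene (CPM, y axis from 0) in the 48 CD8+ libraries by condition (x axis); points are libraries, short lines the mean of 2, and colours the genotype. Myb is the gene whose BBA libraries lie above both WT libraries in 8 of 8 conditions, while the BBA and WT libraries of Bach2 overlap in 5 and those of Klf2 in 6.

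The first comparison asked how the genes differ between cell states of WT mice without cytokine. Id3 and Myb were higher in memory than in naive cells, and Lef1, Bach2 and Satb1 were lower in effector than in naive cells. A call here means a difference beyond 1.5-fold with an adjusted p under 0.05 (edgeR quasi-likelihood test, Benjamini-Hochberg adjustment over all genes tested), and where DESeq2 called a difference named here that edgeR did not, its adjusted p is given beside it. By this rule 7 of 27 member comparisons were called in WT, 4 higher and 3 lower in the more differentiated state, against 4.27% of all gene comparisons (1282 of 30039; 2.78% for Tcm and 8.08% for Tem against Tnv). Myb, at 12.4 and 11.8 CPM in the WT Tnv libraries, was at 73.1 and 74.5 CPM in Tcm and at 51 and 43.9 CPM in Tem. All Tcm and Tem libraries were above the Tnv libraries, by 2.61 (adjusted p = 0.000708) and 1.99 on the log2 scale (adjusted p = 0.000386). Id3 was at 16.1 and 16.8 CPM in Tnv, 46.7 and 49.9 CPM in Tcm and 34.1 and 30.4 CPM in Tem. It rose by 1.55 (adjusted p = 0.00237) and 0.98 log2 (adjusted p = 0.00425), again without overlap.

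Among the genes that were lower in effector cells, Lef1 had 535 and 529 CPM in Tnv, 330 and 362 CPM in Tcm and 175 and 242 CPM in Tem. The 3 states did not overlap, and Tem was below Tnv by a log2 difference of -1.33 (adjusted p = 0.00436). Bach2 fell from 156 and 168 CPM in Tnv to 60.5 and 90.4 CPM in Tem (-1.08, adjusted p = 0.042), a call that was lost when either Tnv library or Tem replicate 1 was left out (log2 difference -1.4 to -0.82, adjusted p up to 0.221). Satb1 fell from 836 and 894 to 443 and 543 CPM (-0.79, adjusted p = 0.0177), and its call was lost without any 1 of the same 3 libraries (-0.95 to -0.65, adjusted p up to 0.17). Tcf7 moved little, with 1360 and 1420 CPM in Tnv, 1320 and 1370 CPM in Tcm and 1130 and 1120 CPM in Tem. Its 3 state differences ranged from -0.29 to -0.05 log2, and none was called.

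In AAB mice 9 of 27 state comparisons were called (4.32% of all gene comparisons) and in BBA mice 3 (1.99%). Myb was again higher in Tcm than in Tnv, with a log2 difference of 2.56 in AAB (adjusted p = 0.000812, 4.11% of genes called) and of 1.87 in BBA (adjusted p = 0.0437, 0.51% called). Id3 was higher in Tcm by 0.91 in AAB (adjusted p = 0.0122) and by 1.18 in BBA (adjusted p = 0.0432). The BBA calls for both genes were lost when any of the 4 BBA Tnv or Tcm libraries was left out, with adjusted p up to 0.4, and the AAB call of Id3 without replicate 1 of either state, with adjusted p up to 0.0853. Lef1 in Tem against Tnv was at -1.27 in AAB (adjusted p = 0.00214, 7.82% of genes called) and at -1.32 in BBA, where it did not pass (adjusted p = 0.076, 5.4% called). DESeq2 called it (adjusted p = 0.000317), as it did Bach2, Myb and Satb1 in the same BBA comparison (adjusted p up to 0.0106). The other AAB calls in Tem against Tnv were Id3 (0.85, adjusted p = 0.0102), Bach2 (-0.97, adjusted p = 0.00951), Myb (2.33, adjusted p = 0.000682) and Satb1 (-0.79, adjusted p = 0.0026), and in BBA the other call was Id3 (0.75, adjusted p = 0.0402). Of these, Myb and Satb1 in AAB held with any 1 library left out, as did Lef1. In AAB the Id3 call was lost without replicate 1 of Tnv or Tem (adjusted p up to 0.0668) and the Bach2 call without Tnv replicate 2 or Tem replicate 1 (adjusted p up to 0.0683), and in BBA the Id3 call was lost without either Tnv library or replicate 1 of Tcm or Tem (adjusted p up to 0.263). AAB also had Lef1 called lower in Tcm than in Tnv (-0.68, adjusted p = 0.0295) and Satb1 lower in Tem than in Tcm (-0.69, adjusted p = 0.0206). These were lost without either Tnv library or Tcm replicate 1 (adjusted p up to 0.173) and without any library of the fit but Tem replicate 1 (adjusted p up to 0.122).

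The central comparison of the study set the STAT5 genotypes against each other within each CD8+ condition. Of 72 gene and condition pairs, 10 were called in BBA against WT, all of them higher in BBA, where 2.86% of all gene comparisons were called higher and 5.43% in either direction. In AAB against WT 1 of 72 was called, higher (0.729% of all gene comparisons), and in AAB against BBA 2 were called, both lower in AAB (0.828%). 6 of the 10 BBA calls were of Myb, 2 of Lef1, 1 of Tcf7 and 1 of Id3, and Bach2, Foxo1, Klf2, Satb1 and Bcl11b had none. In Tcm with IL-7 a fit over all CD8+ libraries called Bach2 higher in BBA (0.94 log2, adjusted p = 0.024), and DESeq2 called Klf2 (0.60, adjusted p = 0.00166). The WT libraries there include the replicate low in Bcl2 and Pim1, and Bach2 ranged from 60 to 148 CPM in them. Counted without a threshold, both BBA libraries lay above both WT libraries in 38 of the 72 pairs, below them in 4 and overlapped in 30, where 25.6% of all gene comparisons lay above and 25.3% below. Both AAB libraries lay above WT in 32 pairs and below in 7 (20.5% and 20.1% of all gene comparisons). Most of the differences were small, and the count of pairs is not a count of independent observations, since the 9 genes share the same libraries.

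**Figure D2:**
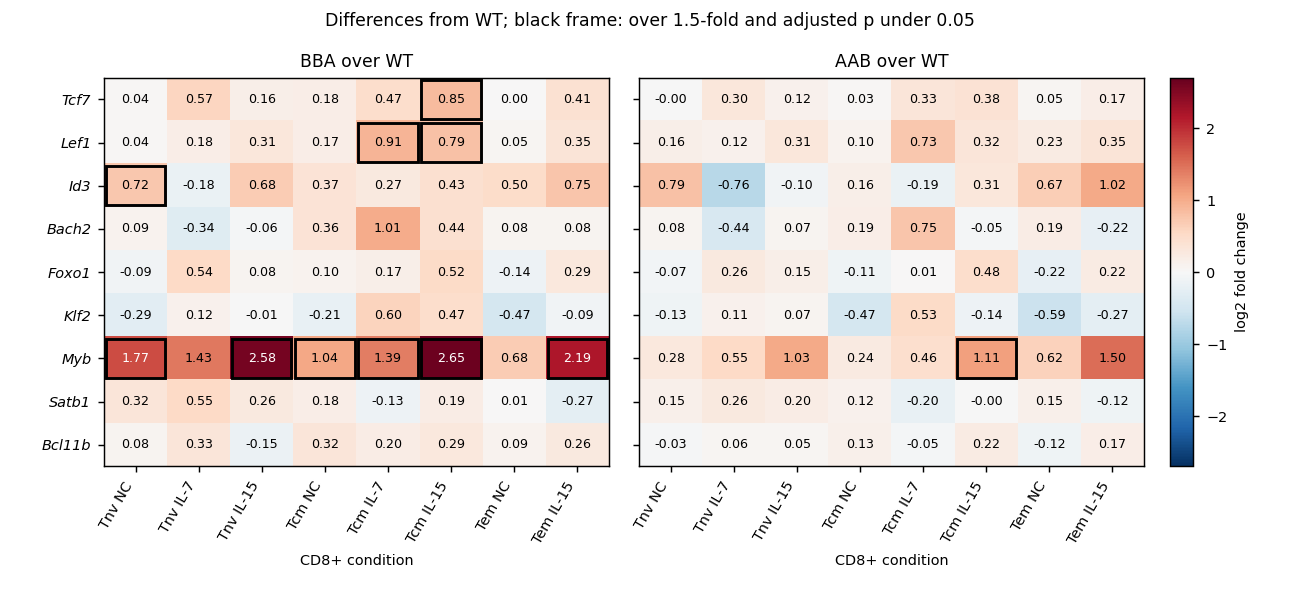
Log2 fold change of each gene in BBA over WT (left) and AAB over WT (right) in the 8 CD8+ conditions; red is higher than WT, and a black frame marks over 1.5-fold at an adjusted p under 0.05. Frames mark 10 cells on the left, 6 of them in the Myb row, and 1 on the right, Myb in Tcm with IL-15. Both panels use the same WT libraries.

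Myb (chr10:21124935-21160984 in GRCm38, minus strand) carried most of the genotype difference. In Tnv without cytokine it was at 12.4 and 11.8 CPM in WT, 12.7 and 16.8 CPM in AAB and 34.9 and 47.1 CPM in BBA. Both BBA libraries lay above the other 4, by 1.77 ± 0.19 log2 over WT (SE, adjusted p = 0.00492; 2.75% of all genes were called in this condition), and the call held when any of the 6 libraries was left out (adjusted p up to 0.0456). AAB lay below BBA with a log2 difference of -1.48 ± 0.18 (adjusted p = 0.0283, 0.523% of genes called), lost without either WT library, AAB replicate 1 or BBA replicate 2 (-1.7 to -1.25 log2, adjusted p up to 0.126). In Tnv with IL-15 the levels were 4.02 and 12.2 CPM in WT, 17.1 and 17.3 CPM in AAB and 44.9 and 54.8 CPM in BBA. The 3 genotypes did not overlap, and BBA exceeded WT by 2.58 ± 0.43 log2 (adjusted p = 0.0114, 9.6% of genes called). The higher of the WT values belongs to the replicate with CD4-lineage and regulatory T cell markers, and with any 1 library left out the BBA difference ranged from 2.01 to 3.61 log2 and remained called.

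In Tnv with IL-7 Myb was at 7.89 and 11.5 CPM in WT, 9.85 and 19 CPM in AAB and 22.7 and 29.4 CPM in BBA. The BBA libraries were above the rest, but the difference of 1.43 log2 did not pass the edgeR test (adjusted p = 0.0954) and was called by DESeq2 (adjusted p = 0.00537).

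In memory cells Myb was at 73.1 and 74.5 CPM in WT, 79.2 and 95 CPM in AAB and 153 and 148 CPM in BBA without cytokine. BBA was above WT by 1.04 ± 0.13 log2 (adjusted p = 0.0452) in a condition where 0.283% of genes were called. That call was lost without any of the 4 WT and BBA libraries (1.01 to 1.06 log2, adjusted p up to 0.236). With IL-7 the values were 71.6 and 43.5, 66.6 and 88.9, and 129 and 168 CPM in the same order. BBA was 1.39 ± 0.27 log2 above WT (adjusted p = 0.0481, 3.08% of genes called). This call was lost without any 1 of the 4 AAB and BBA libraries (1.08 to 1.79 log2, adjusted p up to 0.312), with a term for sex (1.57 log2, adjusted p = 0.119), with the filterByExpr filter and with DESeq2's size factors (1.38, adjusted p = 0.0508), while DESeq2 kept it (adjusted p = 0.000257).

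Among the memory cell conditions the BBA difference was largest with IL-15. Myb was at 30.2 and 26.7 CPM in WT, 61.1 and 61.5 CPM in AAB and 176 and 181 CPM in BBA, so the genotypes formed 3 non-overlapping levels. BBA exceeded WT by 2.65 ± 0.10 log2 (adjusted p = 9.44e-05) and AAB exceeded WT by 1.11 ± 0.09 (adjusted p = 0.00382), while AAB lay below BBA with a log2 difference of -1.54 ± 0.09 (adjusted p = 0.000836). All 3 calls held with any 1 of the 6 libraries left out. In this condition many genes moved: 23.5% of those tested were called in BBA against WT, 4.45% in AAB against WT and 5.84% in AAB against BBA.

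In effector cells with IL-15 Myb was at 19.2 and 24.6 CPM in WT, 59.7 and 63.3 CPM in AAB and 81.9 and 121 CPM in BBA. The genotypes did not overlap, and BBA was 2.19 ± 0.22 log2 above WT (adjusted p = 0.0221, 1.81% of genes called). The call was lost without either WT library, either AAB library or BBA replicate 1 (1.89 to 2.43 log2, adjusted p up to 0.172). The AAB difference, 1.5 log2, was not called by edgeR (adjusted p = 0.23) and was by DESeq2 (adjusted p = 1.65e-08). Without cytokine the effector values were 51 and 43.9 CPM in WT, 69.9 and 76.5 CPM in AAB and 60.1 and 92.9 CPM in BBA, and BBA was 0.68 log2 above WT (adjusted p = 0.295).

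The calls of the HMG-box genes between genotypes were in memory cells with cytokine. Tcf7 (chr11:52252371-52283014, minus strand) in Tcm with IL-15 was at 841 and 968 CPM in WT, 1180 and 1170 CPM in AAB and 1570 and 1700 CPM in BBA. The levels did not overlap, and BBA exceeded WT by 0.85 ± 0.10 log2 (adjusted p = 0.00121), a call that held with any 1 library left out. AAB was 0.38 log2 above WT (adjusted p = 0.0705). Without cytokine the same cells had 1320 and 1370 CPM in WT and 1470 and 1570 CPM in BBA, a difference of 0.18 log2 that was not called. In Tnv with IL-7 Tcf7 was at 913 and 1000 CPM in WT, 1160 and 1220 CPM in AAB and 1430 and 1420 CPM in BBA. The genotypes did not overlap there either, and the BBA difference of 0.57 log2 (adjusted p = 0.0653) was called in a fit over all CD8+ libraries (0.59, adjusted p = 0.00161). With IL-15 the BBA difference was larger in Tcm than in Tnv by 0.69 log2, which edgeR did not call (adjusted p = 0.202) and DESeq2 did (adjusted p = 0.0401).

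Lef1 (chr3:131110471-131224356, plus strand) in Tcm with IL-15 was at 321 and 370 CPM in WT, 430 and 427 CPM in AAB and 555 and 636 CPM in BBA. BBA was 0.79 ± 0.11 log2 above WT (adjusted p = 0.00196), without overlap, and the call held with any 1 library left out but not with the filterByExpr filter or with no filter, where the fold fell under the limit. With IL-7 Lef1 was at 278 and 320 CPM in WT, 529 and 447 CPM in AAB and 582 and 531 CPM in BBA. Here both mutant genotypes lay above WT, by 0.91 ± 0.17 log2 in BBA (adjusted p = 0.0436), while the AAB difference of 0.73 was called by DESeq2 alone of the 2 tools (adjusted p = 0.00374). The BBA call was lost without any 1 of the AAB or BBA libraries (0.82 to 1.03 log2, adjusted p up to 0.288), with a term for sex (0.81 log2, adjusted p = 0.168) and with the filterByExpr filter.

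Id3 (chr4:136143497-136145755, plus strand) was called in Tnv without cytokine, where it was at 16.1 and 16.8 CPM in WT, 25.1 and 32.2 CPM in AAB and 27 and 27.4 CPM in BBA. Both mutant genotypes lay above WT. The BBA difference was 0.72 ± 0.14 log2 (adjusted p = 0.035), lost without any 1 of the WT or BBA libraries (0.69 to 0.75 log2). It was also lost in a fit over all CD8+ libraries (adjusted p = 0.558). The AAB difference of 0.79 was not called by edgeR (adjusted p = 0.12) and was by DESeq2 (adjusted p = 0.00495). In Tem with IL-15 Id3 was at 33 and 28.5 CPM in WT, 67.3 and 56.3 CPM in AAB and 55.3 and 49.6 CPM in BBA. These groups did not overlap with WT either, but neither difference passed with edgeR (1.02 log2 in AAB, adjusted p = 0.235, and 0.75 in BBA, adjusted p = 0.0767). DESeq2 called both (adjusted p = 1.17e-06 and 0.000242).

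Over the whole set, Tcm with IL-15 was the condition in which all 9 genes had a positive difference in BBA, with a median of 0.466 log2 against 0.003 over all 9856 genes tested. 3 of the 9 were called higher (11.1% of all genes were). Id3 (0.43, adjusted p = 0.026), Bach2 (0.44, adjusted p = 0.0116) and Foxo1 (0.52, adjusted p = 0.0312) passed the p limit but stayed under 1.5-fold. Bcl11b (0.29, adjusted p = 0.0505), Klf2 (0.47, adjusted p = 0.219) and Satb1 (0.19, adjusted p = 0.191) did not pass. In AAB against BBA, Tcf7 (-0.47, adjusted p = 0.0386), Lef1 (-0.47, adjusted p = 0.0438) and Bach2 (-0.49, adjusted p = 0.0302) likewise passed the p limit under the fold limit.

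Other markers moved in the same BBA memory libraries. B cell markers, 5 genes, summed to 92.6 to 172 CPM in WT, 69.8 to 193 CPM in AAB and 197 to 412 CPM in BBA, and none of them was at 0 or called. 2 of 5 measured myeloid markers (Lyz2 and Csf1r) were called higher, with the list summing to 10.4 to 15.5 CPM in WT and 27.7 to 49.7 CPM in BBA. The 5 memory and effector markers summed to 1570 to 1700 CPM in WT and 797 to 1080 CPM in BBA, with Il2rb, the receptor chain shared by IL-2 and IL-15, lower by a log2 difference of -1.29 (adjusted p = 0.000194). Their part in the differences of the 9 genes was not tested.

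Other markers also moved in the other conditions with a Myb call. In Tcm with IL-7, where Lef1 was called too, B cell markers summed to 18.3 to 41.3 CPM in WT and 152 to 259 CPM in BBA, with Cd79a among the genes called higher. The memory and effector markers summed there to 1980 to 2100 CPM in WT and 576 to 840 CPM in BBA, with Il2rb called lower and Gzmk higher. The myeloid markers summed there to 209 to 357 CPM in WT, 45 to 57.2 CPM in AAB and 140 to 221 CPM in BBA. In Tcm without cytokine the regulatory T cell markers Foxp3 and Ikzf2 summed to 23.4 to 25.8 CPM in WT and 46.1 to 50 CPM in BBA, and in Tem with IL-15 to 32.7 to 49.4 and 61.9 to 75.2 CPM, neither gene being called. In Tnv with IL-15 the myeloid markers summed to 6.7 to 14.8 CPM in WT and 38.1 to 98.5 CPM in BBA, with Csf1r called higher. In Tnv without cytokine the B cell sum was 53.2 to 132 CPM in WT and 73.6 to 97.6 CPM in BBA, and the regulatory T cell sum 22.5 to 24.4 and 27.9 to 28.6 CPM, with Ikzf2 called higher. The part of these markers in the Myb and Lef1 differences was not tested.

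The genes that work with the set or oppose it were described from lists fixed with earlier results of these data known. In Tcm with IL-15, 11.1% of all genes tested were called higher in BBA than in WT and 12.3% lower. There 1 of 10 related regulators was higher in BBA than in WT (Runx1, 0.79 log2, adjusted p = 0.00412) and none lower. Of 14 targets and surface genes of naive and stem-like cells, 5 were higher and 2 lower. The IL-7 receptor gene Il7r was higher by 1.31 log2 (adjusted p = 0.00297), the egress receptor gene S1pr1 by 0.69 (adjusted p = 0.00136) and the chemokine receptor gene Ccr9 by 3.12 (adjusted p = 9.44e-05). Igfbp4, a gene read as a mark of naive cells, was lower at -2.94 (adjusted p = 9.44e-05) and Dapl1 at -1.94 (adjusted p = 0.00793). Of 9 tested effector regulators 2 were higher, Prdm1 (1.79, adjusted p = 0.00629) and Irf4 (1.11, adjusted p = 0.016), and 3 lower, Tbx21, which encodes T-bet (-1.52, adjusted p = 0.000886), Bhlhe40 and Nfil3. The medians of the 3 lists were 0.2, 0.216 and -0.011 log2.

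The next comparison asked how cytokine alone moved the genes. In WT 6 of 45 comparisons with cytokine against without were called, 2 higher and 4 lower (5.49% of all gene comparisons), 4 of them in Tnv with IL-7, where 20.3% of genes were called. Bach2 rose from 156 and 168 to 373 and 422 CPM (1.28 ± 0.10 log2, adjusted p = 0.000403). Foxo1 fell from 412 and 411 to 165 and 189 CPM (-1.23 ± 0.18, adjusted p = 0.00344). Neither pair of groups overlapped, and both calls held with any 1 library left out.

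The chromatin organisers fell in the same cells. Satb1 went from 836 and 894 to 520 and 576 CPM (-0.68 log2, adjusted p = 0.00334) and Bcl11b from 495 and 521 to 307 and 352 CPM (-0.64, adjusted p = 0.00892). The groups did not overlap, and Bcl11b lost its call without Tnv without cytokine replicate 2 or Tnv with IL-7 replicate 1 (-0.75 to -0.54 log2, adjusted p up to 0.071). Tcf7 was at 1360 and 1420 CPM without and 913 and 1000 CPM with IL-7 (-0.56, adjusted p = 0.0238, under the fold limit). As given above, these libraries also differ in sex.

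With IL-15 2 WT comparisons were called with all libraries in the fits. The Tnv fit holds IL-15 replicate 2, the library with CD4-lineage and regulatory T cell markers. Without it, on 1 remaining IL-15 library, the Tnv differences were -0.72 log2 for Foxo1, -1.41 for Id3 and -1.61 for Myb. In Tnv Bach2 was the member called, from 156 and 168 to 273 and 253 CPM (0.69 log2, adjusted p = 0.00951, 6.15% of genes called), a call lost without either library without cytokine (0.64 to 0.75 log2, adjusted p up to 0.0888). In Tem Myb fell from 51 and 43.9 to 19.2 and 24.6 CPM (-1.12, adjusted p = 0.0471, 1.53% of genes called), lost without either library without cytokine (-1.31 to -0.96, adjusted p up to 0.223). Bach2 in Tem was at 60.5 and 90.4 CPM without and 127 and 176 CPM with IL-15, without overlap (0.999 log2, edgeR adjusted p = 0.118, DESeq2 adjusted p = 0.00224). In Tcm Myb was at 73.1 and 74.5 CPM without and at 30.2 and 26.7 CPM with IL-15. The groups did not overlap and differed by -1.41 ± 0.24 log2, but the adjusted p was 0.17, in an edgeR fit where 0 of 10768 genes were called with IL-15 and 1311 had an unadjusted p under 0.05. That fit holds the Tcm libraries with IL-7 as well. The difference was -1.42 log2 without replicate 1 of those, the one low in Bcl2 and Pim1, and -1.41 without replicate 2. Leaving out either of them gave a call by edgeR. DESeq2 gave an adjusted p of 0.000125 for Myb with all libraries and called 337 genes.

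In the mutants 3 of 45 cytokine comparisons were called in AAB, 1 higher and 2 lower (6.71% of all gene comparisons), and 5 in BBA, all higher (7.79%). In AAB Tnv with IL-7, Foxo1 fell from 381 and 408 to 209 and 220 CPM (-0.89 log2, adjusted p = 0.0121) and Id3 from 25.1 and 32.2 to 10 and 8.38 CPM (-1.64, adjusted p = 0.0243), with 9.17% of genes called. Both calls were lost without either AAB library without cytokine, with adjusted p up to 0.116 and 0.148. In BBA Tnv with IL-7 Bach2 rose from 150 and 194 to 280 and 350 CPM (0.87, adjusted p = 0.0228, 6.89% of genes called), lost without either library without cytokine or IL-7 replicate 2 (0.71 to 1.07 log2, adjusted p up to 0.162).

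Klf2 was the Tnv gene called with IL-15 in both mutants. In AAB it went from 588 and 814 to 1140 and 1550 CPM (0.93 log2, adjusted p = 0.0332, 10.5% of genes called) and in BBA from 521 and 724 to 1010 and 1510 CPM (1.003, adjusted p = 0.0203, 16.8% called). In WT it was at 638 and 886 CPM without and 1120 and 1390 CPM with IL-15, a difference of 0.72 log2 that edgeR did not call (adjusted p = 0.0837) and DESeq2 did (adjusted p = 0.00529). The response was not shown to differ from WT in either mutant (interaction of 0.22 log2 in AAB, adjusted p = 0.944, and 0.31 in BBA, adjusted p = 0.711). No pair of groups overlapped. The AAB call was lost without any 1 of its 4 libraries (adjusted p up to 0.256) and the BBA call without its replicate 1 without cytokine or replicate 2 with IL-15 (adjusted p up to 0.173).

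In BBA Tcm the called genes were Lef1 with IL-15 (0.61 log2, adjusted p = 0.0416) and Bach2 with IL-7 (0.63, adjusted p = 0.041) and IL-15 (0.63, adjusted p = 0.044), where 7.99% and 6.9% of genes were called. Bach2 was at 113 and 154 CPM without cytokine, 213 and 203 CPM with IL-7 and 196 and 220 CPM with IL-15, and Lef1 at 334 and 440 CPM without cytokine and 555 and 636 CPM with IL-15. Groups did not overlap, but each of the 3 calls was lost without any 1 of 5 of the 6 libraries in the fit, all but replicate 2 without cytokine (adjusted p up to 0.217).

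Whether a genotype changed the cytokine response was tested by interaction terms, of which 3 of 126 were called among the members (1.06% of all gene comparisons). The difference of BBA from WT in Myb was larger in Tcm with IL-15 than without cytokine by 1.64 ± 0.15 log2 (adjusted p = 0.00135, 7.64% of genes called), and this held with any 1 of the 12 libraries left out. In these cells Myb went from 153 and 148 to 176 and 181 CPM in BBA, while WT went from 73.1 and 74.5 to 30.2 and 26.7 CPM. For Tcf7 the same term was 0.70 (adjusted p = 0.021), and without WT or BBA Tcm with IL-15 replicate 1, BBA Tcm with IL-15 replicate 2 or either BBA Tcm library without cytokine it was lost (0.59 to 0.81 log2, adjusted p up to 0.0952). For Foxo1 in Tnv with IL-7 against without cytokine it was 0.64 ± 0.14 (adjusted p = 0.0465, 2.46% of genes called), and it was lost without any 1 of 10 of the 12 libraries, all but the AAB libraries with IL-7 (0.54 to 0.75 log2, adjusted p up to 0.18). With IL-7 Foxo1 was at 165 and 189 CPM in WT and at 270 and 244 CPM in BBA. The Foxo1 call was also lost with DESeq2's size factors and in a fit over all CD8+ libraries (adjusted p up to 0.291). The Tcf7 call was also lost with the filterByExpr filter, with no filter and with a limit of 2-fold. In the Tnv libraries of every genotype IL-7 and sex cannot be told apart. The Myb interaction of AAB in Tcm with IL-15 was 0.90 (edgeR adjusted p = 0.0691, DESeq2 adjusted p = 0.000182). In Tem with IL-15 the Myb interaction of BBA was called by DESeq2 alone of the 2 tools (1.52 log2, adjusted p = 0.00607). Between Tcm and Tnv with IL-15 the BBA difference in Myb was not called as different.

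A STAT dimer binds the palindrome TTCNNNGAA, and the members' promoter windows were searched for it as a description. 9 of 9 members matched 17 RefSeq windows (GRCm38.p6) of 300 bases, from 250 before to 50 after a start site, and the motif, which reads alike on both strands, was found in 1 of them. It lies in a window of Bach2 at chr4:32417185-32417484 on the plus strand. It begins at position -140 from the start site. The window is inside the annotated gene (chr4:32238804-32586108), and the bases around the motif are printed here with the motif in capitals.

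Bach2 window: gccttgtagTTCGTTGAAgagaaacac

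Of all 32851 such windows 8.3% hold the motif. The match is a description of these letters, and no binding was used here.

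Naive CD4+ cells allowed the IL-7 response to be read among male libraries alone. 13 of 27 comparisons with IL-7 against without cytokine were called, 6 higher and 7 lower (13.5% of all gene comparisons; 16.8% in WT, 11.2% in AAB and 12.4% in BBA). Bach2 was at 238, 207 and 287 CPM without and 444, 438 and 485 CPM with IL-7 in WT, and rose by 0.90 log2 (adjusted p = 0.000569). Foxo1 was at 446, 432 and 401 CPM without and 191, 199 and 236 CPM with IL-7, with a log2 difference of -1.03 (adjusted p = 0.000102). Klf2 was at 371, 448 and 372 CPM without and 779, 799 and 1000 CPM with IL-7, a rise of 1.12 (adjusted p = 0.000185).

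None of these WT groups overlapped. Id3 fell from 26.8, 50 and 54.4 to 9.92, 15.4 and 17.5 CPM (-1.59, adjusted p = 0.00235) and Myb from 21.6, 35.1 and 22.4 to 5.78, 12.8 and 12.4 CPM (-1.29, adjusted p = 0.00739), also without overlap. These 5 WT calls held with any 1 library left out. Bach2 and Klf2 rose and Foxo1 fell in AAB (0.99, 1.33 and -0.86 log2) and in BBA (0.84, 1.15 and -0.77 log2) as well, and the Foxo1 calls were lost without AAB replicate 2 without cytokine (adjusted p = 0.0677) and BBA replicate 1 without cytokine (adjusted p = 0.0803). Id3 also fell in BBA, from 36.4 and 30.5 to 18.8, 10.2 and 18.7 CPM (-1.07, adjusted p = 0.0235, lost without either library without cytokine, adjusted p up to 0.118), and was at 22.6 and 26.8 CPM without and 5.38 and 12.9 CPM with IL-7 in AAB (-1.44, edgeR adjusted p = 0.0509, DESeq2 adjusted p = 0.00295).

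Myb differed between the CD4+ genotypes with IL-7. It was at 5.78, 12.8 and 12.4 CPM in WT, 8.5 and 11.7 CPM in AAB and 59.8, 20.9 and 30.2 CPM in BBA. All BBA libraries were above all others, and BBA exceeded WT by 1.79 ± 0.40 log2 (adjusted p = 0.0215), the 1 call among 36 genotype comparisons in CD4+ cells (1.87% of all gene comparisons; 5.51% of genes in this one). The call was lost without any 1 of the WT libraries (1.25 to 2.06 log2 over all libraries left out, adjusted p up to 0.075). BBA replicate 1, the library with the highest Myb level, also had the highest B cell marker sum of the CD4+ libraries, 56 CPM against 12.8 and 26.2 CPM in the other BBA and 6.06 to 9.78 CPM in the WT libraries with IL-7. Without it the Myb difference was 1.25 log2 and still called (adjusted p = 0.0452). Without cytokine Myb was at 35.6 and 43.1 CPM in BBA and did not fall with IL-7 by the test (-0.09 log2, adjusted p = 0.886), whereas in AAB it went from 19.2 and 19.9 to 8.5 and 11.7 CPM (-0.96, adjusted p = 0.0277, lost without either library without cytokine or the IL-7 replicate 2, adjusted p up to 0.109). Of the BBA libraries with IL-7, those at 20.9 and 30.2 CPM lay below both BBA libraries without cytokine, and replicate 1 at 59.8 CPM lay above them. The difference between the BBA and AAB responses was not tested. Tcf7 with IL-7 was at 1350, 1360 and 1470 CPM in WT and 1930, 1880 and 2230 CPM in BBA, without overlap, a difference of 0.53 ± 0.09 log2 (adjusted p = 0.00593) that is under the fold limit.

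Klf2 responded differently to IL-7 in the WT cells of the 2 lineages. In CD8+ Tnv it was at 638 and 886 CPM without and 681 and 916 CPM with IL-7, against the rise given above in CD4+ cells. A fit over both lineages, added after the values were seen, gave a difference between the responses of 1.09 ± 0.246 log2 (adjusted p = 0.0248, 6.03% of genes called). The call was lost without WT Tnv without cytokine replicate 2 (0.83, adjusted p = 0.104) or WT Tnv with IL-7 replicate 1 (0.88, adjusted p = 0.0954), and in the CD8+ libraries IL-7 and sex cannot be told apart. The other 8 genes were not called by edgeR, with differences from -1.46 (Id3, adjusted p = 0.0632) to 0.32 log2. DESeq2 called Id3 as well, its response being lower in CD4+ cells (-1.49, adjusted p = 0.00557), and so did edgeR without WT CD4+ replicate 1 without cytokine (adjusted p = 0.0216).

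**Figure D3:**
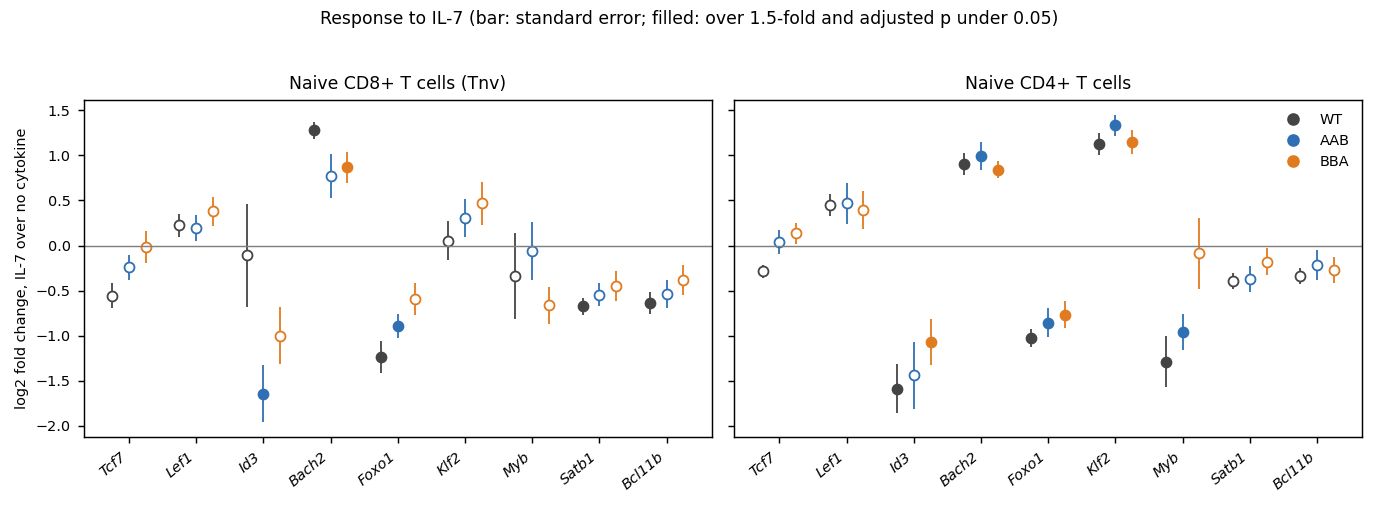
Log2 fold change of each gene with IL-7 over no cytokine (y axis) in naive CD8+ cells (left) and naive CD4+ cells (right), by genotype; bars are standard errors and filled points are over 1.5-fold at an adjusted p under 0.05. Bach2 lies above 0 and Foxo1 below 0 in all 6 sets, while Klf2 is filled in the CD4+ panel alone.

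The last experiment asked what constitutively active STAT5A does in AAB cells. Naive CD8+ cells from AAB mice were activated through CD3 and CD28 and transduced with a retrovirus carrying it (S5a) or an empty virus (Ctl). They were then cultured with IL-2, which also activates STAT5, and GFP+ cells were sorted, 2 libraries each. These libraries go against their cell type label. Cd8a was at 1.39 to 3.17 CPM, Cd8b1 at 0.302 to 1.56 CPM and Cd3e at 2.78 to 14.9 CPM, while the NK receptor genes Ncr1, Klrb1c and Klre1 were at 1120 to 1460, 231 to 589 and 200 to 414 CPM. Klra8, also on the list of 4 NK cell markers, did not exceed 5 CPM in any of these libraries. Cd3g, the highest of the CD3 genes, reached 103 CPM. Their values are therefore given for the libraries labelled S5a and Ctl only. The transduced Stat5a was at 59.5 and 60.6 CPM in S5a and 8.43 and 3.22 CPM in Ctl. Stat5b was at 147 and 131 CPM in S5a and 62 and 73.6 CPM in Ctl.

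2 of 9 members were called, both lower in S5a (6.63% of all genes were called). Tcf7 was at 735 and 821 CPM in Ctl and 117 and 212 CPM in S5a, without overlap and with a log2 difference of -2.24 ± 0.28 (adjusted p = 0.00808). Id3 was at 8.2 and 9.81 CPM in Ctl (106 and 119 counts) and 0.786 and 1.29 CPM in S5a (13 and 14 counts), a difference of -3.14 ± 0.40 (adjusted p = 0.00862). Both calls held with any 1 library left out. Foxo1 (-0.47, adjusted p = 0.0531), Klf2 (0.79, adjusted p = 0.0801, DESeq2 adjusted p = 0.00136) and Myb (-1.14, adjusted p = 0.147) did not pass, although their libraries did not overlap between the groups, and Lef1 was at 100 and 68.6 CPM in Ctl and 80.1 and 90.1 CPM in S5a (0.02 log2).

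Markers of other cells moved in the same libraries. All 5 B cell markers tested were lower in S5a, summing to 89.8 to 146 CPM in Ctl and 9.32 to 25.8 CPM in S5a, with none at 0, and the 3 CD3 genes summed to 105 to 213 CPM in Ctl and 19.1 to 44.8 CPM in S5a, 2 of them called lower. The myeloid markers went the other way, summing to 467 to 611 CPM in Ctl and 1160 to 1310 CPM in S5a. The regulatory T cell markers summed to 75.6 to 93.7 CPM in Ctl and 27.5 to 36.6 CPM in S5a. The part of these markers in the Tcf7 and Id3 differences was not tested. Replicate 1 was male and replicate 2 female in both groups, and with a term for sex Tcf7 (-2.29, adjusted p = 1.9e-05) and Id3 (-3.14, adjusted p = 0.000532) stayed called and Klf2 was called higher (0.82, adjusted p = 0.0229). Of 12 tested targets and surface genes 7 were lower in S5a, among them Il7r (-2.69, adjusted p = 0.00484) and Ccr7 (-2.32, adjusted p = 0.00677), and none higher. Over all genes tested 4.42% were called lower and 2.21% higher. The effector regulators Prdm1 (1.47, adjusted p = 0.00765), Zeb2 (1.43, adjusted p = 0.00466) and Bhlhe40 were higher, Irf4 lower.

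**Figure D4:**
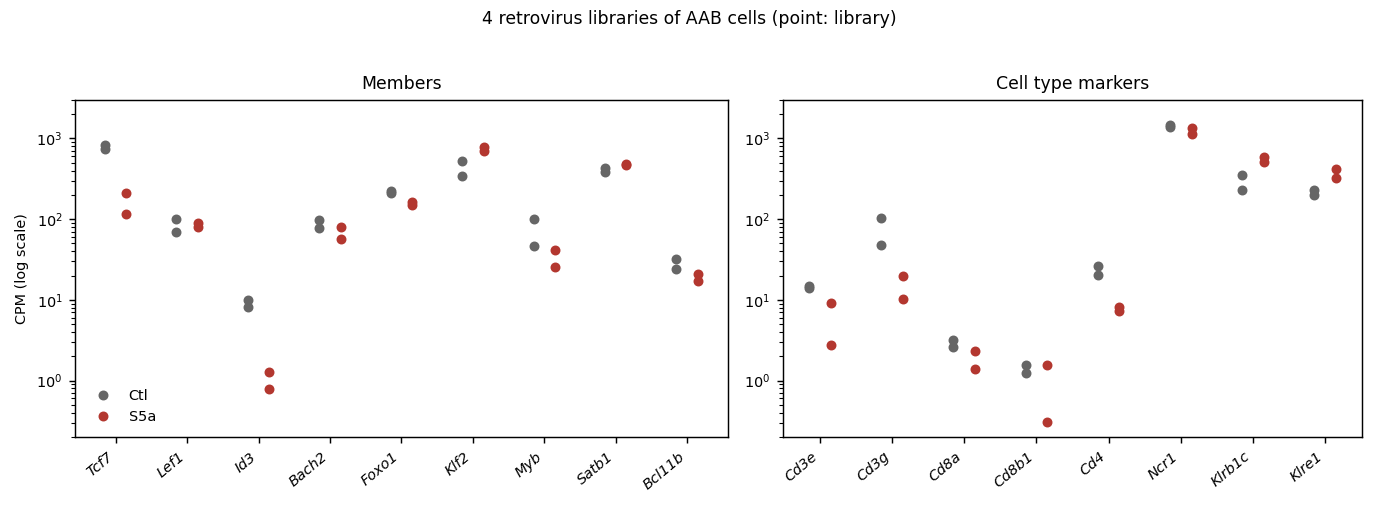
Levels (CPM, log scale) of the 9 genes (left) and of T cell, CD4, CD8 and NK cell marker genes (right) in the 2 Ctl and 2 S5a libraries; each point is a library. Tcf7 and Id3 are lower in S5a, and Cd8a stays under 4 CPM where Ncr1 exceeds 1000 CPM.

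The members did not move as 1 group over the 24 CD8+ group means. Pearson's r, as a description over means that share libraries and cell states, was 0.888 between Lef1 and Bach2, 0.85 between Id3 and Myb and 0.784 between Foxo1 and Bcl11b, and -0.674 between Id3 and Bach2. Among 7225 genes over 20 CPM on average, the gene most like each member was Map4k4 for Tcf7 (0.936), Inadl for Lef1 (0.968), Cxcr5 for Id3 (0.936), Rbm6 for Bach2 (0.951), Sirt7 for Foxo1 (0.923), Ubxn6 for Klf2 (0.96), Camk2d for Myb (0.892), Rhobtb2 for Satb1 (0.865) and Helz for Bcl11b (0.905).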

How the data were processed

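Expression was measured by polyA RNA-seq in 48 CD8+, 17 CD4+ and 4 retrovirus libraries. The authors deposited raw read counts per gene in a table for each experiment. The submitters' processing notes name TopHat2, Cufflinks, HTSeq and the build mm9, whereas the study's methods name mm10. Gene annotation, strand setting and tool versions are not given in the sources used here, and positions printed in the report are from GRCm38. The retrovirus table holds summary rows for reads outside genes (67 to 68.4% of its counts), which were left out of library sizes and tests.

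The study's labels state that the libraries without cytokine were cultured, while its methods describe cells processed directly. Groups were taken from the labels, and 2 CD4+ libraries whose title and treatment label differ were left unassigned.

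Each comparison was fitted with edgeR 4.0.16 in R 4.3.3 (TMM normalization, quasi-likelihood F test in its legacy form) after a filter on low counts by the Jaccard index between replicates (the HTSFilter rule, 100 thresholds from 1 to 200, loess span 0.3). P-values were adjusted by Benjamini-Hochberg over all genes kept, and a call needed more than 1.5-fold and an adjusted p under 0.05. Log2 fold changes are given with SE. Genotypes were compared within a condition, cytokines and states within a genotype. CPM levels used TMM factors over genes above 5 CPM on average within each table and can be compared within a table only. Where replicates were compared (38 pairs), they differed beyond sampling noise. Same-numbered libraries were compared by the correlation of their deviations from group means (over 0.1 in 40 of 48 CD8+ pairs and in 12 of 13 CD4+ pairs). It was highest in Tem with IL-15, at 0.674 to 0.789. With 2 libraries in each CD8+ group, the pairs numbered 1 and 2 give the same value. The main fits hold no replicate term, and a replicate block was fitted as an alternative. The steps were tested on simulated counts. In those for BBA against WT in Tcm with IL-15, 19.4% of genes changed 1.5-fold, 77.6% of genes changed 2-fold and all of those changed 4-fold were called, so small differences are often missed with 2 libraries a group.

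Named genes were the 9 members, the most similar gene to each and, from fixed lists, the genes that a result turns on. The members and lists were chosen with earlier results of these data known. Alternatives were DESeq2 1.42.0, its size factors, edgeR's newer quasi-likelihood form, other low-count filters, other fold limits, a replicate block, a sex term (in the retrovirus libraries added after the values were seen), a fit over all libraries of a lineage, and leaving out each library. Stat5a and Stat5b served as the check of the labels.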

Additional observations from a re-analysis of the deposited data

Results flagged for a closer look

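4 differences between responses passed the test of the difference itself. Myb in Tcm showed a larger BBA effect with IL-15 than without cytokine, by 1.64 log2 (edgeR adjusted p = 0.00135), with BBA libraries rising from 153 and 148 to 176 and 181 CPM while WT libraries went from 73.1 and 74.5 to 30.2 and 26.7 CPM. Tcf7 showed the same kind of difference in these cells, 0.7 log2 (adjusted p = 0.021). The Tcf7 call was kept under 6 of 9 alternatives, with 0.47 to 0.7 log2 and an adjusted p up to 0.284 over them. It was lost with the filterByExpr filter, with no filter and with a limit of 2-fold, and also when some single libraries were left out. Foxo1 in Tnv showed a difference of 0.64 log2 between the IL-7 responses of BBA and WT (adjusted p = 0.0465), with levels with IL-7 of 270 and 244 CPM in BBA and of 165 and 189 CPM in WT. That call was kept with only 2 of the 12 libraries left out in turn, and IL-7 and sex cannot be told apart in Tnv. Klf2 responded to IL-7 by 1.09 log2 more in WT CD4+ than in WT CD8+ naive cells (adjusted p = 0.0248), a test added after the values were seen, and in the CD8+ libraries IL-7 and sex cannot be told apart.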

How the results depend on the processing

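No member's called difference turned its direction under any alternative. Myb kept its call in BBA against WT in Tnv without cytokine, Tnv with IL-15 and Tcm with IL-15, in AAB against WT and against BBA in Tcm with IL-15, and in the Tcm IL-15 interaction, under all 9 alternatives and with each library left out. With 2 libraries in most groups, a difference of under 2-fold is often below what the tests detect, so a member that was not called is not shown to be alike. The CPM values rest on the deposited counts, and reads shared with overlapping genes could not be separated.

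The number of members called moved as follows, and the cause was not tested except where the fold limit itself was changed. With a limit of 2-fold it was 6 in place of 10 for BBA against WT in CD8+ cells, 3 in place of 6, 1 in place of 3 and 1 in place of 5 for cytokines in WT, AAB and BBA, 3 in place of 9 for the AAB states, 1 in place of 3 for the interactions and 7 in place of 13 for IL-7 in CD4+ cells. With any fold it was 5 in place of 2 for AAB against BBA, 8 for the AAB cytokines and 2 in place of 1 for the CD4+ genotypes. The filterByExpr filter left 6 calls for BBA against WT. Without a filter there were 7 in place of 1 for AAB against WT, 6 for AAB against BBA, 7 for the AAB cytokines, 13 in place of 7 and 13 in place of 3 for the WT and BBA states, 2 for the CD4+ genotypes and 4 in place of 2 for the retrovirus. DESeq2 gave 6 for AAB against WT, 4 for AAB against BBA, 7 and 9 for the AAB and BBA cytokines, 11 and 8 for the WT and BBA states and 8 for the interactions. A fit over all libraries of a lineage gave 1 for AAB against BBA, 3 for the BBA cytokines, and 5 for the AAB and 5 for the BBA states. Calls lost in that fit included Id3 in BBA against WT in Tnv without cytokine (adjusted p = 0.558) and in WT Tem against Tnv (adjusted p = 0.108). Bach2 in WT Tnv with IL-15 was lost as well (adjusted p = 0.198), as was Myb in BBA against WT in Tcm without cytokine.

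A replicate block gave 5 calls for AAB against WT, 4 for AAB against BBA, 9 for the BBA cytokines, 12 and 10 for the WT and BBA states and 9 for the interactions, and again 10 for BBA against WT, of which 8 were shared. There Lef1 and Myb in Tcm with IL-7 lost their calls (adjusted p = 0.0645 and 0.0733), and Myb in Tnv with IL-7 and Id3 in Tem with IL-15 gained them (adjusted p = 0.011 and 0.00315). In AAB against WT, Myb and Id3 in Tem with IL-15 gained calls (adjusted p = 0.0041 and 0.00756). The labels do not say that the numbers pair the libraries. Deviations of same-numbered libraries correlated from -0.061 to 0.789 in CD8+ and from 0.083 to 0.453 in CD4+ cells. No block could be fitted for IL-7 in AAB CD4+ cells. For the retrovirus the label of 1 Ctl library gives no number, and a term for sex, added after the values were seen, gave 3 calls in place of 2.

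With each library left out in turn the number of calls ranged from 8 to 13 for BBA against WT, 1 to 3 for AAB against WT and for AAB against BBA, 4 to 9, 0 to 5 and 2 to 7 for cytokines in WT, AAB and BBA, 5 to 7, 5 to 9 and 0 to 6 for their states, 2 to 7 for the interactions, 0 to 1 for the CD4+ genotypes, 11 to 14 for IL-7 in CD4+ cells and 2 to 4 for the retrovirus.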

Other observations

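2 CD4+ libraries carry a title that names no cytokine and a treatment label that names IL-7, and they were left out of all comparisons. Foxo1, which was at 388 to 480 CPM in the labelled CD4+ libraries without cytokine and at 191 to 305 CPM in those with IL-7, was at 406 and 447 CPM in the unassigned libraries. Bach2 was at 189 to 287 CPM without cytokine, at 406 to 485 CPM with IL-7 and at 233 and 211 CPM in the unassigned libraries. Klf2 was at 369 to 448 CPM without cytokine, at 692 to 1040 CPM with IL-7 and at 421 and 404 CPM in the unassigned libraries. Myb was at 30.8 and 78.5 CPM, Tcf7 at 1660 and 2020 CPM and Id3 at 34.4 and 59.5 CPM in the 2 libraries. Stat5a was at 1.9 CPM in one and 45.7 CPM in the other.

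In WT effector against naive cells without cytokine the gene lists around the members moved in their own ways. Of 14 targets and surface genes 8 were lower and none higher (median -0.698 log2 against 0 over all genes tested, 8.08% of which were called), among them the homing receptor gene Ccr7 (-0.97 log2, adjusted p = 0.00626). Of 10 effector regulators 6 were higher and none lower (median 1.217 log2), led by Tbx21 (5.03, adjusted p = 5.64e-05) and Zeb2 (3.42, adjusted p = 0.000467). None of the 10 related regulators was called by edgeR, with 2 at an unadjusted p under 0.05.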
